A study of Mus musculus with 4 samples.

Results

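NRF2 is the transcription factor encoded by Nfe2l2, and the 10 genes described here are NRF2 itself, its inhibitor Keap1, and genes that NRF2 is known to drive: Gclc, Gclm, Slc7a11, Gsr, Txnrd1, Srxn1, Nqo1 and Osgin1. They were chosen by name, with earlier results of these data known. Each had a locus listed under its name alone among the 25572 loci of the authors' deposited table, and the authors tested 9 of them, as they did 13320 loci in all. Slc7a11 was too low to test. RNA came from livers of C57BL/6J mice aged 8 weeks, in 2 libraries labelled Ern1-LKO, a knockout of Ern1 restricted to the liver, and 2 libraries from wild-type (WT) control mice. Ern1 encodes IRE1α, a sensor of unfolded protein in the endoplasmic reticulum (ER). The sources used here do not give the sex of the mice, the driver of the deletion or the deleted exons.

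The table gives 1 FPKM value (fragments relative to transcript length and to the size of the library) for each genotype, so no value per library can be shown. For the same reason a difference could rest on either library of a genotype, and the read depth is unknown. Error is given as a standard error (SE) worked back from the authors' statistic, here called the implied SE, and a gene is called when their q-value lies under 0.05. Calls made up 2.74% of tested loci, with 1.58% higher and 1.16% lower in LKO-labelled livers. Ern1 stood at 30.2 FPKM in LKO-labelled livers and 21.4 FPKM in WT livers. In the authors' deposited table its log2 fold change is 0.50 (implied SE 0.19), with p = 0.0084 and q = 0.172. Ern1 was thus not called, and its value was higher rather than lower under the knockout label. Since reads from exons that a deletion leaves in place count towards this value, it does not check the labels. Every direction below is that of the libraries labelled Ern1-LKO.

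In resting cells KEAP1 holds NRF2 and hands it to the proteasome. Electrophiles and oxidants modify cysteines of KEAP1, NRF2 then escapes degradation, pairs with a small MAF protein and binds antioxidant response elements. NRF2 is thus controlled largely at the level of its protein, and its activity is usually read from its targets, which make glutathione, reduce thioredoxin and detoxify quinones. In liver this programme is known for protection against reactive drug metabolites, and PERK, another ER stress sensor, is known to phosphorylate NRF2.

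Promoter sequence is shown because a member that was called, Osgin1, and a member that was not, Srxn1, carry the same element of this type. The element was chosen after it was seen at Osgin1. RefSeq windows on GRCm38.p6, from 250 bases before to 50 bases after the start of transcription, were at hand for 8 of the 10 genes, Txnrd1 having 3 windows, and Gclc and Gsr had no entry. Both strands were searched for TGACNNNGC, the core antioxidant response element, and for TGANTCAGC, the form that NRF2 and small MAF proteins share with NF-E2. A stretch with C at the N of the second motif would match both. The core was found in 12.4% and the NF-E2 form in 1.19% of all 32851 windows. The NF-E2 form was present at Osgin1, on the opposite strand 99 bases before the start, and at Srxn1, on the gene's strand 45 bases before it. GENCODE M21 starts Osgin1 earlier, at 119434124, outside the RefSeq window, and no window at that start was searched. The 150 bases before each start are given 5′ to 3′ on the gene's strand, with the element in capitals, for Osgin1 at chr8:119436997-119437146 (plus strand) and Srxn1 at chr2:152105374-152105523 (plus strand).
Osgin1: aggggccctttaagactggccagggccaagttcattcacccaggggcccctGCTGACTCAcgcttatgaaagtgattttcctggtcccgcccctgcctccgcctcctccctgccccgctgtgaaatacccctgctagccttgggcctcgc
Srxn1: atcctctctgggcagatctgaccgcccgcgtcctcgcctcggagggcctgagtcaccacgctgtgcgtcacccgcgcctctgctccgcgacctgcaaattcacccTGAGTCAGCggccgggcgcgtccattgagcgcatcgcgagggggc
The core element was present at 4 members: Srxn1, after its start, Nfe2l2, Gclm and Txnrd1. For the last 3, the 29 bases around the match are given in the same way, at chr2:75704885-75704913 (minus strand), chr3:122245413-122245441 (plus strand) and chr10:82859104-82859132 (plus strand).
Nfe2l2: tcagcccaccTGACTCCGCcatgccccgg
Gclm: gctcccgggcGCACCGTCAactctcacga
Txnrd1: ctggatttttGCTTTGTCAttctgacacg
No match was found in the windows of Keap1, Nqo1 and Slc7a11, which says only that these letters are absent there. A match is a description of the letters and not a measured binding site.

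Osgin1 fell in LKO-labelled livers, and the other 8 tested genes were not called. Beside 1 of 9 tested members called, 2.74% of all tested loci were called, and an unadjusted p under 0.05 was likewise reached by Osgin1 alone, against 10.3% of all tested loci. Because earlier results were known when the members were chosen, these shares are a description and do not test the set. Of the 9 tested genes 8 lay below WT, and their median log2 fold change was -0.11, against -0.01 over all tested loci, of which 52.1% lay below WT. Without Osgin1 the median was -0.10. The summed level of the 8 uncalled genes was 320.3 FPKM in LKO-labelled livers and 348 FPKM in WT livers.

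**Figure D1:**
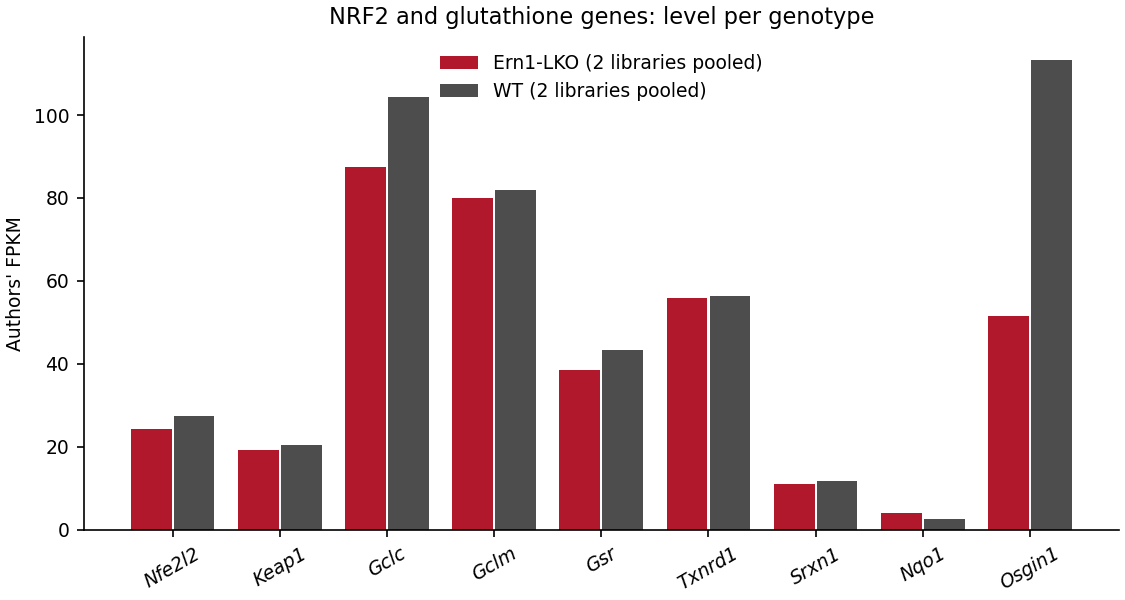
Bars give the authors' FPKM of the 9 tested genes, 1 value per genotype from 2 pooled libraries, for livers labelled Ern1-LKO (red) beside WT livers (grey). Osgin1 stands at 51.5 in LKO-labelled livers and 113 in WT livers, while Txnrd1 stands at 55.8 and 56.3.

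The regulator and its inhibitor were not called. Nfe2l2, the gene of NRF2 (chromosome 2, 75675466 to 75704641 on mm10), stood at 24.3 FPKM in LKO-labelled livers and 27.4 FPKM in WT livers. In the authors' deposited table Nfe2l2 has a log2 fold change of -0.17 (implied SE 0.17, 95% interval -0.50 to 0.15) and q = 0.952. Keap1, the adaptor that targets NRF2 for degradation (chromosome 9, 21229730 to 21239332), stood at 19.2 FPKM in LKO-labelled livers and 20.4 FPKM in WT livers. Its log2 fold change in the authors' deposited table is -0.08 (implied SE 0.17, 95% interval -0.41 to 0.24), with q = 0.999. Both transcripts were of upper-middle abundance in LKO-labelled livers, Nfe2l2 above 81.4% and Keap1 above 78.1% of tested loci. Transcript levels do not measure the amount or the nuclear share of NRF2 protein.

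The genes of glutathione synthesis were abundant and not called. Gclc encodes the catalytic subunit of glutamate-cysteine ligase, the rate-limiting enzyme of glutathione synthesis (chromosome 9, 77754535 to 77794489). It stood at 87.4 FPKM in LKO-labelled livers and 104 FPKM in WT livers, the second largest difference among the members of at least 10 FPKM. In the authors' deposited table its log2 fold change is -0.26 (implied SE 0.17, 95% interval -0.58 to 0.07), with p = 0.128 and q = 0.725. Gclm encodes the modifier subunit, which raises the affinity of the enzyme for glutamate (chromosome 3, 122245465 to 122269968), and stood at 80.0 FPKM in LKO-labelled livers and 82.0 FPKM in WT livers. For Gclm the authors' deposited table lists a log2 fold change of -0.04 (implied SE 0.18, 95% interval -0.39 to 0.32) and q = 0.999. On the FPKM scale, which is per length, the ratio of Gclc to Gclm was 1.09 in LKO-labelled livers and 1.27 in WT livers.

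Cystine uptake and glutathione recycling completed this branch. Slc7a11, the light chain of the cystine-glutamate exchanger (chromosome 3, 50364936 to 50443613), was listed at 0 FPKM in LKO-labelled livers and at 0.0018 FPKM in WT livers. Its transcript was therefore at or near the table's lowest values in both genotypes. Gsr, glutathione reductase, which returns oxidised glutathione to its reduced form with NADPH (chromosome 8, 33653238 to 33698162), stood at 38.6 FPKM in LKO-labelled livers and 43.3 FPKM in WT livers. In the authors' deposited table Gsr has a log2 fold change of -0.17 (implied SE 0.16, 95% interval -0.49 to 0.16) and q = 0.958.

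The thioredoxin genes were not called, and Txnrd1 was the member nearest to WT. Txnrd1, cytosolic thioredoxin reductase, a selenoprotein (chromosome 10, 82833951 to 82897724), stood at 55.8 FPKM in LKO-labelled livers and 56.3 FPKM in WT livers. For it the authors' deposited table lists a log2 fold change of -0.01 (implied SE 0.16, 95% interval -0.34 to 0.31) and q = 0.999, and the sign turned when the median of expressed loci was set to 0. Srxn1, sulfiredoxin, which repairs overoxidised peroxiredoxins (chromosome 2, 152105524 to 152111376), stood at 10.9 FPKM in LKO-labelled livers and 11.8 FPKM in WT livers. Its log2 fold change in the authors' deposited table is -0.11 (implied SE 0.18, 95% interval -0.46 to 0.23), with q = 0.999. The interval of Srxn1 does not reach the value of Osgin1, and the difference between the 2 genes was not tested. Both carry the NF-E2 type element in the sequences above, on different strands and at different distances from the start. Srxn1 also has a core element after its start. The part of these elements in either value was not tested.

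Nqo1, a quinone reductase and a widely used reporter of NRF2 activity in mouse liver, was the only tested member above WT. It stood at 4.06 FPKM in LKO-labelled livers and 2.59 FPKM in WT livers, and in the authors' deposited table its log2 fold change is 0.65 with p = 0.382 and q = 0.996. The implied SE was 0.72, against a median of 0.19 over the 10926 tested loci with an FPKM of at least 1, and the 95% interval ran from -0.77 to 2.06. Changes of either sign therefore lie inside the interval. The interval that the table prints for Nqo1, chromosome 8, 107256164 to 107559267, spans 303 kb, whereas the gene covers 15.0 kb in GENCODE M21. The same interval is printed for Nfat5, Wwp2 and Nob1, whose implied SEs were 0.23, 0.34 and 0.49. Its part in the wide error of Nqo1 was not tested.

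**Figure D2:**
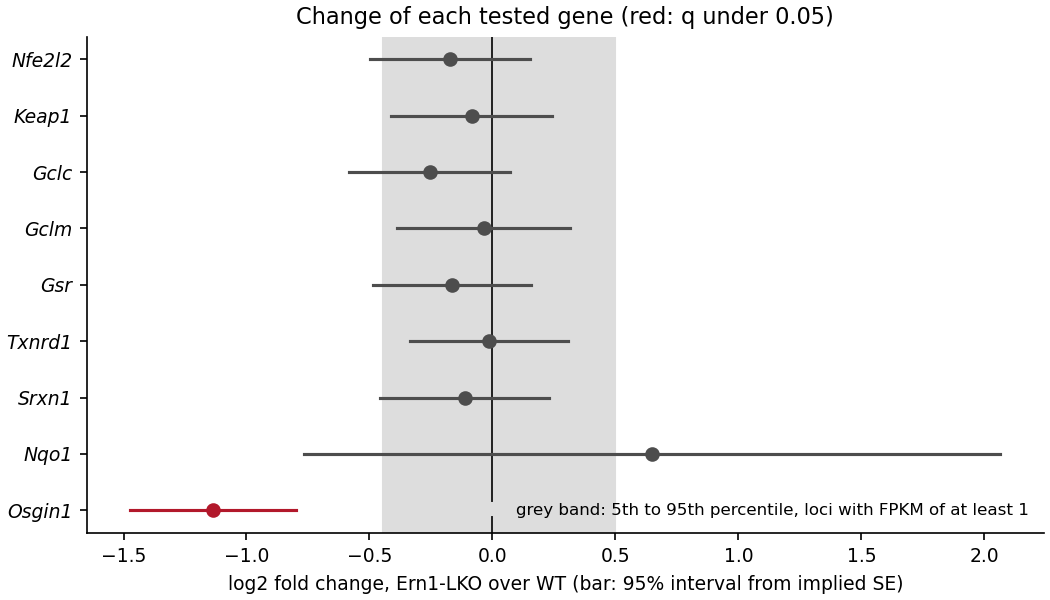
Points give the authors' log2 fold change of LKO-labelled over WT livers for the 9 tested genes, and lines its 95% interval from the implied SE. The grey band holds the 5th to 95th percentile of the 10926 tested loci with an FPKM of at least 1 (-0.45 to 0.50). Osgin1 (red), at -1.13, is the called gene, and Nqo1 has the widest interval.

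Osgin1, oxidative stress induced growth inhibitor 1 (chromosome 8, 119437162 to 119446256), is known as an NRF2 target that restrains growth and favours cell death under oxidative stress. It stood at 51.5 FPKM in LKO-labelled livers and 113 FPKM in WT livers, a level 54.5% lower. In the authors' deposited table its log2 fold change is -1.13 (implied SE 0.17, 95% interval -1.47 to -0.80), with p = 5e-05 and q = 0.00343. These are the smallest values in the table. Other loci share them, among them Chac1 and Retn, so they do not rank Osgin1 first. Since p stops at that floor, it gives a z of 4.06 where the statistic gives 6.60, and the implied SE could not be checked against it. Among the 9 tested members Osgin1 ranked 4 by level in LKO-labelled livers and 1 in WT livers, where Gclc came next at 104 FPKM. Without a spread between libraries, the order of Osgin1 and Gclc in WT livers and of Txnrd1 and Osgin1 in LKO-labelled livers is a description. The change lay at the 1.11 percentile of all tested loci. Of the 774 tested loci that stood at or above the WT level of Osgin1, 23 were called, 17 of them lower, and 5 had a log2 fold change at or below that of Osgin1, counting Osgin1 in each.

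The 4 tested loci beside Osgin1 lay below WT as well, by less, and were not called. Of the nearest tested loci, the one before Osgin1, 7.53 kb from its start, has no gene name and overlaps no GENCODE M21 gene. It stood at 7.81 FPKM in LKO-labelled livers and 10.4 FPKM in WT livers, and in the authors' deposited table its log2 fold change is -0.42 (implied SE 0.18), at q = 0.296 and p = 0.0199. A further unnamed locus, 20.1 kb from the start, stood at 6.08 FPKM in LKO-labelled livers and 8.06 FPKM in WT livers, with q = 0.390 in the authors' deposited table. Mlycd, which encodes malonyl-CoA decarboxylase, lies beyond it and stood at 45.1 FPKM in LKO-labelled livers and 52.3 FPKM in WT livers. On the other side, Necab2 begins 463 bases from the end of Osgin1 and was too low to test, at 0.07 FPKM in LKO-labelled livers and 0.13 FPKM in WT livers, and Slc38a8 beyond it was listed at 0 in both. The nearest tested locus on that side, Mbtps1, the site-1 protease that cleaves ATF6 and SREBP proteins, stood at 17.1 FPKM in LKO-labelled livers and 17.9 FPKM in WT livers. Distances before Osgin1 count from its printed start, 119437162, whereas GENCODE M21 starts the gene at 119434124, nearer to the unnamed loci. The strand of the unnamed loci is not given, so whether their reads belong to a neighbouring gene cannot be told.

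**Figure D3:**
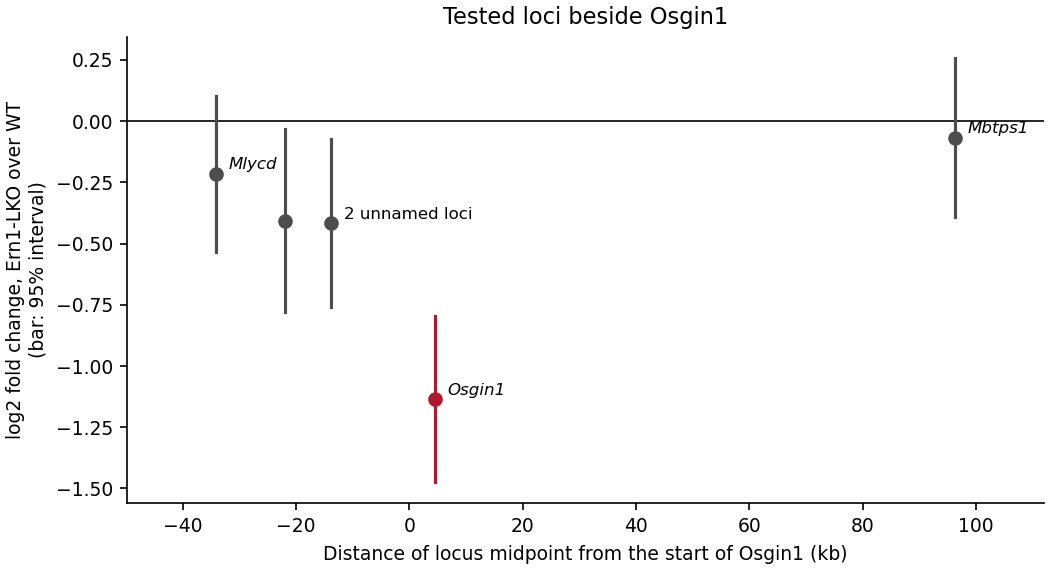
Points give the authors' log2 fold change (vertical axis) of Osgin1 in red and of the tested loci beside it, against the distance of each locus midpoint from the start of Osgin1 in kb, and lines give 95% intervals. The 2 unnamed loci lie at -0.41 and -0.42, above the value of Osgin1, -1.13.

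The rest of the pathway was read from 8 lists of 96 genes, which held 95 tested loci, Cat having 2. These lists too were chosen with earlier results known, so their share of calls is a description. In all, 4 loci rose and 1 fell, 5.26% of those tested, against 2.74% of all tested loci. At q under 0.01, or with a 2-fold minimum, 1 of the 5 was called, Chac1. The median log2 fold change was 0.05, and 59 lay above and 36 below WT. An unadjusted p under 0.05 was reached by 16 of the 95 tested loci, against 10.3% of all tested loci. Thus the members lay mostly below WT while the wider lists lay mostly above it, in each case with a small median.

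Of 10 genes that control NRF2, 1 rose: Bach1, a repressor that competes with NRF2 at its elements. Bach1 stood at 13.8 FPKM in LKO-labelled livers and 9.31 FPKM in WT livers, at a log2 fold change of 0.56 (implied SE 0.17) in the authors' deposited table, with q = 0.0339. The 2 most abundant entries of that list were not called. They were the combined locus of Mafg, Pcyt2 and Sirt7, at 257 FPKM in LKO-labelled livers and 273 FPKM in WT livers, and Sqstm1, an autophagy receptor that binds KEAP1, at 185 and 204 FPKM. Hmox1, heme oxygenase 1, a target held down by BACH1, was named here after its value was seen. It stood at 11.1 FPKM in LKO-labelled livers and 8.14 FPKM in WT livers, with q = 0.317 and p = 0.0227 in the authors' deposited table. Me1, of the same list of further NRF2 targets and also named after its value was seen, went the other way. It stood at 69.6 FPKM in LKO-labelled livers and 100 FPKM in WT livers, with the authors' q = 0.0973 and p = 0.00355. Of the 19 tested loci of that list 14 lay above and 5 below WT.

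Among 19 tested genes of glutathione supply and use, 1 rose, Chac1, a cytosolic enzyme that breaks down glutathione and a known ATF4 target. Chac1 stood at 7.98 FPKM in LKO-labelled livers and 2.31 FPKM in WT livers, a ratio of 3.45, with q = 0.00343 in the authors' deposited table. The most abundant genes of the list were not called. Gpx1, the main cytosolic glutathione peroxidase, stood at 2114 FPKM in LKO-labelled livers and 2034 FPKM in WT livers, and Glo1, glyoxalase, at 279 and 310.3 FPKM. Genes that feed glutathione synthesis were named after their values were seen. Gss, glutathione synthetase, stood at 42.3 FPKM in LKO-labelled livers and 49.3 FPKM in WT livers, and Slc3a2, the heavy chain that partners SLC7A11 and other transporters, at 11.4 and 15.4 FPKM. Cbs and Cth turn homocysteine into cysteine in consecutive steps. Cth stood at 270 FPKM in LKO-labelled livers and 208 FPKM in WT livers, and Cbs at 166 and 209 FPKM. None of these 4 was called, with q of 0.859, 0.214, 0.347 and 0.475 in the authors' deposited table. The authors' unadjusted p was 0.207 for Gss, 0.012 for Slc3a2, 0.0276 for Cth and 0.0479 for Cbs. Of the 19 tested loci of this list 6 had an unadjusted p under 0.05, against 10.3% of all tested loci. Of 19 glutathione S-transferase loci none was called, and 1 had an unadjusted p under 0.05. Gstp1 stood at 5357 FPKM in LKO-labelled livers and 5088 FPKM in WT livers, and Mgst1 at 3471 and 3304 FPKM.

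**Figure D4:**
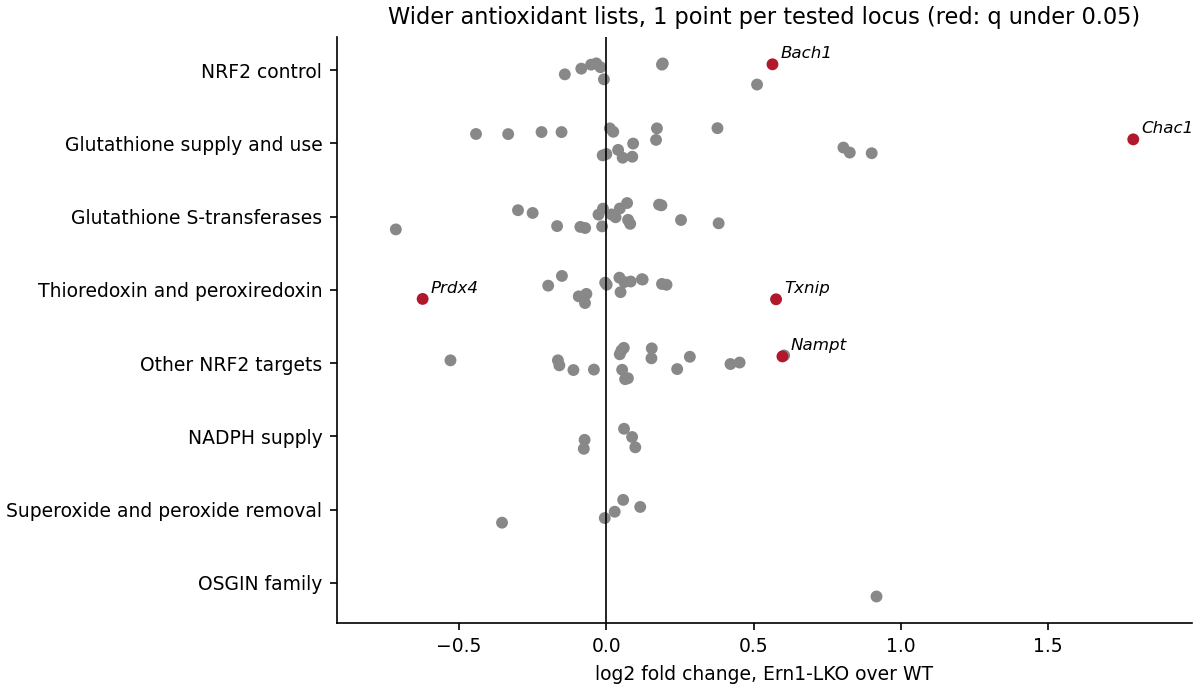
Each point is 1 tested locus of 8 lists of related genes, placed by its log2 fold change of LKO-labelled over WT livers, and spread vertically only to separate points. Red points are called: Bach1, Chac1, Txnip and Nampt were higher and Prdx4 was lower in LKO-labelled livers.

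Of 17 thioredoxin and peroxiredoxin genes 1 rose and 1 fell. Prdx4, the peroxiredoxin that resides in the ER and uses peroxide to oxidise protein disulfide isomerases, fell to 56.3 FPKM in LKO-labelled livers, against 86.7 FPKM in WT livers. For Prdx4 the authors' deposited table lists a log2 fold change of -0.62 (implied SE 0.17) and q = 0.0243. Txnip, which binds and inhibits thioredoxin, rose to 45.7 FPKM in LKO-labelled livers, against 30.6 FPKM in WT livers, with a log2 fold change of 0.58 (implied SE 0.16) and q = 0.0209 in the authors' deposited table. Prdx1, a cytosolic peroxiredoxin, stood at 586 FPKM in LKO-labelled livers and 624 FPKM in WT livers, and Msrb1, a methionine sulfoxide reductase, at 532 and 515 FPKM. Among 19 tested further NRF2 targets Nampt, an enzyme of NAD synthesis, rose to 16.4 FPKM in LKO-labelled livers, against 10.9 FPKM in WT livers (q = 0.0325 in the authors' deposited table). Ferritin light chain Ftl1 stood at 4436 FPKM in LKO-labelled livers and 4242 FPKM in WT livers, and heavy chain Fth1 at 1850 and 1775 FPKM. Neither the 5 NADPH genes nor the 5 loci of superoxide and peroxide removal held a call or an unadjusted p under 0.05. Of these, Idh1 stood at 202 FPKM in LKO-labelled livers and 213 FPKM in WT livers, Taldo1 at 107 and 103 FPKM, Sod1 at 1644 and 1649 FPKM, and the abundant Cat locus at 1194 and 1170 FPKM. Osgin2, the paralogue of Osgin1, was low and not called, at 0.86 FPKM in LKO-labelled livers and 0.45 FPKM in WT livers (q = 0.204 in the authors' deposited table).

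The labelled tissue was checked against markers. The 10 hepatocyte genes summed to 60755 FPKM in LKO-labelled livers and 62048 FPKM in WT livers, with 4 of 10 above WT and none called. Lists of other cell types summed to between 3.34 and 278 FPKM in LKO-labelled livers and between 2.68 and 273 FPKM in WT livers. The highest sums, of the Kupffer cell list, include a combined locus of Cd68 and Eif4a1. That locus stood at 150 FPKM in LKO-labelled livers and 163 FPKM in WT livers. The hepatocyte sums likewise include combined loci, of Apoa1 with Sik3 and of Ahsg with Dnajb11. Adipocyte genes summed to 36.7 FPKM in LKO-labelled livers and 17.7 FPKM in WT livers, with 5 of 5 tested above WT. Most of both sums was Fabp4, at 24.9 and 17.5 FPKM. The others were near 0 in WT livers and differed by a larger ratio. Cfd stood at 7.66 FPKM in LKO-labelled livers and 0.17 FPKM in WT livers, Adipoq at 1.42 and 0.05 FPKM, and Plin1 at 0.64 and 0.0067 FPKM, none of them called. Retn and Lep were at 0 in WT, and Retn was called higher (q = 0.00343 in the authors' deposited table). Stellate cell genes summed to 96.5 FPKM in LKO-labelled livers and 75.3 FPKM in WT livers, with 7 of 7 above WT and none called. Kupffer cell genes lay above WT at 7 of 8, endothelial genes at 6 of 7, bile duct genes at 4 of 5 and muscle genes at 4 of 4, again with no call. Of 3 tested lymphocyte genes 2 lay above WT, and Cd4 was called higher (q = 0.0308 in the authors' deposited table). Pancreatic acinar genes summed to 58.5 FPKM in LKO-labelled livers and 50.5 FPKM in WT livers, all or most of it Cela1, at 58.5 and 46.4 FPKM. The other 5, Pnlip, Clps, Ctrb1, Try4 and Cpa1, were listed at 0 in LKO-labelled livers and stood between 0.21 and 1.41 FPKM in WT livers, and Pnlip and Try4 were called lower (q = 0.00343 each in the authors' deposited table). In whole tissue, fewer cells of a type and less RNA per cell cannot be told apart, and the part of these lists in the change of Osgin1 and of the called genes above was not tested.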

How the data were processed

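Per the labels' protocols, liver RNA was isolated with RNAiso and the libraries are NEBNext Ultra libraries. Per the submitters' processing notes, the tools were Cufflinks 2.2.1, TopHat2 2.0.14, FastQC 0.11.3 and bcl2fastq, and the build mm10; the sources used here do not give their roles, the annotation, the strand setting or the scaling between libraries. The authors' deposited table holds, per the file headers, 1 FPKM value per genotype and locus, the log2 fold change of KO over WT, a test statistic (a signed score), a p-value and a q-value. The log2 values equal the log2 FPKM ratio within 1.3e-05, and the 365 calls by q were the same loci as those found when the p-values were adjusted anew (Benjamini-Hochberg).

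Because no value per library was at hand, no test across libraries was run and the p-values are the authors'. The implied SE is the log2 fold change divided by the statistic and multiplied by ln 2, without sign. The z it gives differed from that of the deposited p by at most 0.028 over the 8 uncalled tested members. For Osgin1, whose p lies at the table's shared floor, this check was not possible. Intervals are normal at 95%. FPKM keeps no depth, so no counting interval was computed. The table has 1 line with no values, and 13 loci with too many fragments and 1 failed locus were not used. The start of each locus was raised by 1, since 6447 of 22004 matched symbols then equal GENCODE M21, against 627 otherwise.

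The members and lists were chosen with earlier results of these data known. Named are all members, Ern1, from each pathway list every called gene and the 2 of highest mean FPKM, and the nearest tested loci beside a called member; other genes were named after their values were seen. Promoter motifs were chosen after a first scan. The tools were matplotlib 3.10.9, scipy 1.17.1, pandas 2.3.3, numpy 2.4.6 and Python 3.11.15, and the adjustment was tested on simulated data.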

Additional observations from a re-analysis of the deposited data

How the results depend on the processing

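Osgin1 was called lower under the main setting and each of 7 others: q under 0.01 or under 0.1, a 2-fold minimum, adjustment over loci with an FPKM of at least 1, an unadjusted p under 0.05, and a normal approximation with log2 fold changes shifted to a median of 0 or not shifted. No other member was called under any of these. With p and q at the smallest deposited values, which other loci share, and a fall of more than 2-fold, Osgin1 had to pass these thresholds. Every setting reuses the same pooled values, so the settings are not separate support. The log2 fold change of Osgin1 lay between -1.13 and -1.11 with pseudocounts of 0.1, 0.5 or 1 or with the shift. Pseudocounts of this size can move a gene of its level only slightly. Of 36 such values over the 9 tested members 35 kept their direction; Txnrd1 turned from -0.01 to 0.0066 with the shift of -0.02, whose construction gives the turn. The members' median lay between -0.11 and -0.09. Calls over all tested loci numbered 365, against 221 at q under 0.01, 165 with a 2-fold minimum and 1368 at an unadjusted p under 0.05. Calls in the wider lists numbered 5, against 1 at q under 0.01, 1 with a 2-fold minimum (Chac1 in both) and 16 at an unadjusted p under 0.05. At q under 0.1 they numbered 7, of which 5 were higher and 2 lower in LKO-labelled livers. The data had been seen when the unshifted approximation was added.

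No paired analysis was possible because each genotype has a single pooled FPKM per locus; leaving out a replicate and the replicate block were therefore not run. The depth of the libraries is unknown; among the members the error limits Nqo1 most.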

Other observations

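Over all tested single-gene loci with a RefSeq promoter window, the NF-E2 type element TGANTCAGC of Osgin1 and Srxn1 was present at 125 loci, of which 4 were called (3.2%), against 238 of 8904 loci without it (2.67%). The element was chosen after it was seen at Osgin1, and without that gene 3 of 124 loci were called in either direction (2.42%). The difference from loci without the element was not tested. The 4 were Osgin1 and Ufl1, a ligase of the ER-linked UFM1 system, which fell, and Mt2, a metallothionein, and Esrrg, which rose. Mt2 stood at 51.5 FPKM in LKO-labelled livers and 18.3 FPKM in WT livers, and Ufl1 at 4.82 and 7.78 FPKM. The core element TGACNNNGC was present at 1547 loci, of which 36 were called (2.33%), against 206 of 7482 without it (2.75%).

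The letters TGACGTGG, an unfolded protein response element that XBP1 is known to bind, were searched in the same windows and strands and were present in 0.676% of all windows and at no member. Of 93 tested loci with it 4 fell (4.3%), against 104 of 8936 without it (1.16%); 2 rose (2.15%), against 132 without it (1.48%), and neither difference was tested. The 4 that fell were Txndc5, an ER disulfide isomerase, at 43.0 FPKM in LKO-labelled livers and 70.9 FPKM in WT livers, Sec24d, a coat protein of ER export vesicles, at 12.6 and 19.9 FPKM, Tmem248 at 16.4 and 25.0 FPKM, and Ccdc149 at 0.36 and 0.78 FPKM. The 2 that rose were Tnfaip3, an inhibitor of NF-kB signalling, at 2.14 FPKM in LKO-labelled livers and 0.86 FPKM in WT livers, and Ppargc1a, a transcriptional coactivator, at 2.91 and 1.39 FPKM.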
